A study of Homo sapiens with 6 samples.

Results

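The 10 loci described here are long non-coding RNA (lncRNA) genes whose GAPDH peaks lay over nuclear transfer RNA (tRNA) genes. GAPDH is a glycolytic enzyme that also contacts RNA. MOLM-13 cells, a human acute myeloid leukaemia line, were kept in galactose, low glucose or normal glucose medium. All 6 samples, 2 of each condition, are CLIP libraries per the study's methods: cells were UV-crosslinked, GAPDH was recovered with a polyclonal antibody and the RNA, trimmed with RNase T1, was sequenced (the labels describe a total RNA preparation instead). The authors joined the samples of each condition, so that there was 1 peak list per condition with positions and gene names but no counts, scores or strands. The loci were selected on these same positions, so their counts are a description without a test, and no spread between replicates or depth can be given. They were 10 of 947 genes in the lists. Their peaks formed 17 of the 951 regions into which overlapping peaks of the series were merged, and 16 of these 17 regions lay over a tRNA gene. The galactose list held 14 of their peaks among 337, the low glucose list 14 among 484 and the normal glucose list 11 among 495.

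A tRNA carries an amino acid to the ribosome and reads a codon with its anticodon. Its gene is transcribed by RNA polymerase III from promoter elements inside the gene, the A box and the B box, and transcription stops at a run of T after the gene. RNase P trims the leader of the precursor at the 5' end and RNase Z the trailer at the 3' end, after which an enzyme adds CCA, bases that the gene does not encode. Some tRNA genes hold an intron next to the anticodon, which is spliced out. Many tRNA genes exist in identical copies, and the RNA of such copies cannot be told apart by its sequence alone. The lists named no nuclear tRNA gene, and these peaks bore the name of a lncRNA they overlapped. Because the lists give no strand, the tRNA and a transcript of its host cannot be told apart as the source of a peak.

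The sites stood over tRNA genes for 8 amino acids. Glycine had 4 sites, asparagine 3, arginine, glutamate and valine 2 each, and aspartate, lysine and proline 1 each. The tRNA genes under the 9 regions found in every medium are shown first, since these are the sequences that recurred in all 3 lists. They were read from hg38 on the strand of the tRNA gene, 5' to 3', with the anticodon in capitals. TRE-TTC4-2 has the same sequence as TRE-TTC4-1 and is not repeated.
TRV-TAC1-1 (valine, chr11:59550629-59550701, minus): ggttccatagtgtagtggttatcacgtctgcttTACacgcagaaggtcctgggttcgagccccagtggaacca
TRV-TAC2-1 (valine, chr11:59550987-59551059, minus): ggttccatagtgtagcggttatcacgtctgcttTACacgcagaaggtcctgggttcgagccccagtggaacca
TRR-TCT3-2 (arginine, chr11:59551294-59551379, plus): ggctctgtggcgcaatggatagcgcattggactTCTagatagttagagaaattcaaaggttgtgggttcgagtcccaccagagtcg
TRR-TCT1-1 (arginine, chr1:93847573-93847657, plus): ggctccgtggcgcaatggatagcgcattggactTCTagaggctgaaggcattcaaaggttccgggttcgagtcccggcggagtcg
TRD-GTC2-11 (aspartate, chr17:8222238-8222309, minus): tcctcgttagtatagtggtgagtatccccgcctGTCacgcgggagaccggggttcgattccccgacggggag
TRP-CGG1-3 (proline, chr17:8222833-8222904, minus): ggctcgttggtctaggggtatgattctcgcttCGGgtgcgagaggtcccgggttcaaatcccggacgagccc
TRE-TTC4-1 (glutamate, chr1:16535279-16535350, minus): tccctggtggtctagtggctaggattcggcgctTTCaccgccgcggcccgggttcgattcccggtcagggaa
TRN-GTT2-7 (asparagine, chr1:145287766-145287839, plus): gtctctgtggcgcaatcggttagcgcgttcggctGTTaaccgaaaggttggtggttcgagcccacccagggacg

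The 2 valine genes differed by 1 base, T16C from TRV-TAC1-1 to TRV-TAC2-1, counted from the 5' end of the gene. The 2 arginine genes, TRR-TCT3-2 and TRR-TCT1-1, were the longest of the 16 at 86 and 85 nt and shared 84.9% of their aligned positions. TTTT, searched on the strand of the tRNA gene in the 60 nt after it, was found at all 16 genes and began 2 to 18 nt after the last base. It was found at 389 of the 430 nuclear tRNA genes whose strand could be read (90.5%).

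Of the 17 regions, 9 held a peak of every list, all of them over a tRNA gene. In the whole series 11% of regions did so, as did 46.5% of the 71 regions over tRNA genes in other hosts. Galactose and low glucose alone shared 3 regions of the loci, 2 of them over tRNA genes, low and normal glucose alone shared 1, and galactose and normal glucose alone shared none. Over the whole series, 86 regions were shared by galactose and low glucose alone, 30 by low and normal glucose alone and 33 by galactose and normal glucose alone. Of the 71 regions over tRNA genes in other hosts, these numbers were 13, 1 and 2. Galactose alone held 2 regions of the loci, low glucose alone 1 and normal glucose alone 1. Of all 951 regions, 11.7% were in galactose alone, 27.5% in low glucose alone and 34.1% in normal glucose alone. Of the 71 over tRNA genes in other hosts, the shares were 5.63% for galactose alone, 11.3% for low glucose alone and 14.1% for normal glucose alone. All 10 loci had a peak in galactose and in low glucose, and 7 had one in normal glucose. The loci are not separate counts, since ENSG00000283317 and ENSG00000283696 each had only a peak shared with ENSG00000283360. The only galactose peak of ENSG00000290578 lay over no tRNA gene. Of all 947 genes, 38.8% were named in the galactose list, 54.1% in the low glucose list and 56.3% in the normal glucose list, so that over all genes normal glucose held the most. The 3 loci with no normal glucose peak listed were ENSG00000285853, ENSG00000283317 and ENSG00000290578.

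**Figure D1:**
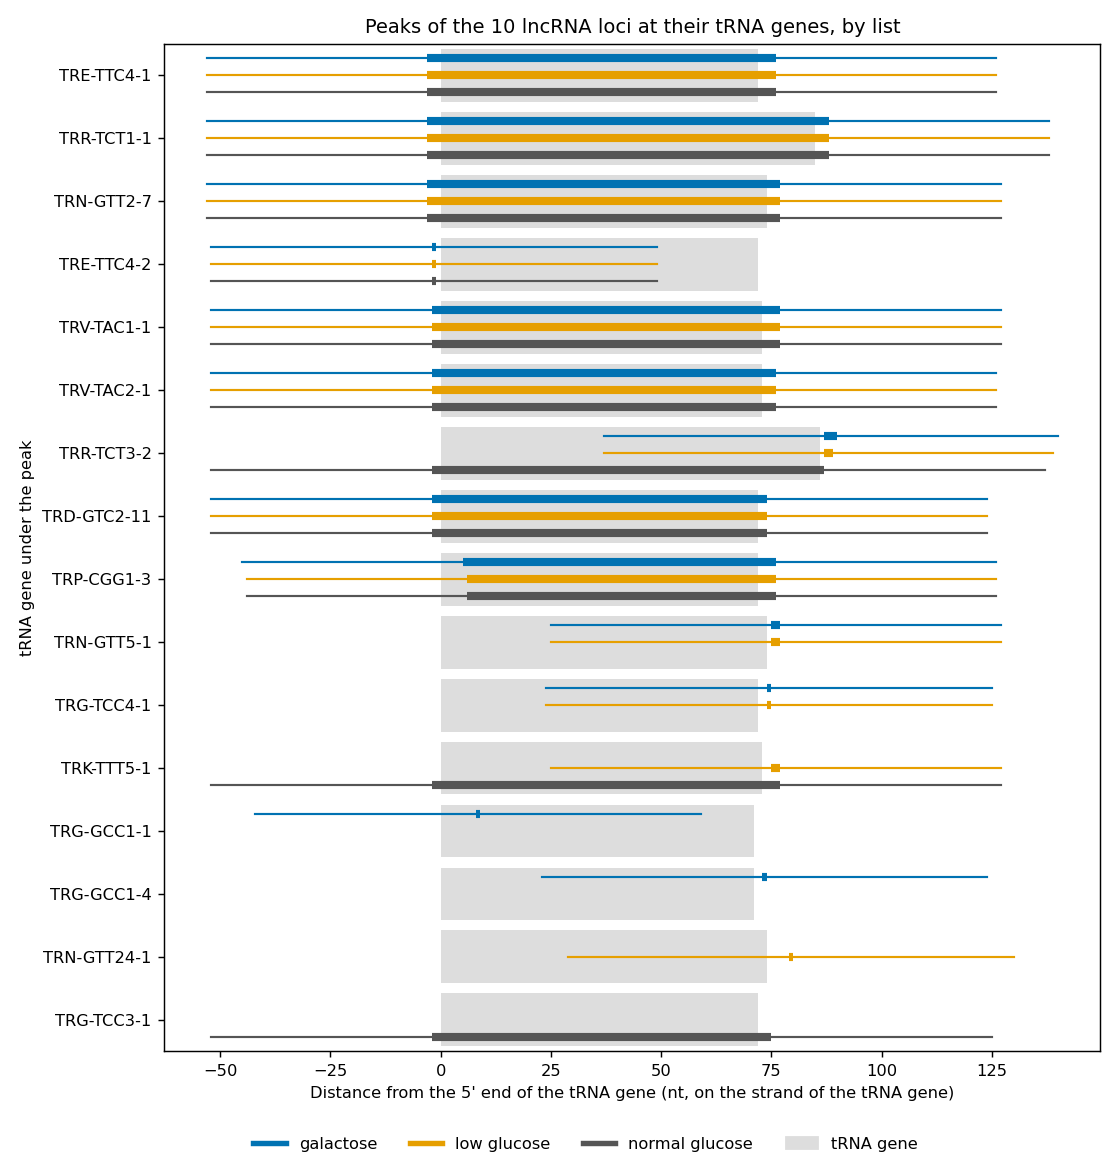
Peaks at the 16 tRNA genes, drawn from the 5' end of each tRNA gene (nt, on its own strand), with galactose above low glucose above normal glucose. Thin lines are whole peaks, thick parts are what is left when 50 nt are taken off each end, and grey boxes are tRNA genes; the upper 9 genes have a peak in every list, and at TRR-TCT3-2 and TRK-TTT5-1 only the normal glucose peak spans the gene.

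ENSG00000287264 on chromosome 11 (59545602 to 59558882, plus strand) held the most regions in all 3 lists of the 10 loci. Its 3 such regions lay side by side in an intron, over both valine tRNA genes and over TRR-TCT3-2, whose genes stood 285 and 234 nt apart. At TRV-TAC1-1, which reads a valine codon, the peak ran from 59550575 to 59550753 in galactose, low glucose and normal glucose. At TRV-TAC2-1 it ran from 59550934 to 59551111, again in every list. Neither valine peak moved by a base between the media. Both valine genes lie on the minus strand and the host on the plus strand.

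At TRR-TCT3-2, an arginine tRNA gene on the host's strand, the lists differed in the part of the gene they marked. The peak was 103 nt wide in galactose (59551331 to 59551433) and 102 nt wide in low glucose (59551331 to 59551432), against 189 nt in normal glucose (59551242 to 59551430). The galactose and low glucose peaks each covered 57% of the gene, its 3' part, and the normal glucose peak all of it. The last region of the locus, 5049 nt further on, differed between low and normal glucose in the same way. There the lysine tRNA gene TRK-TTT5-1 (59556429 to 59556501, plus) held a peak of 102 nt in low glucose (59556454 to 59556555) and of 179 nt in normal glucose (59556377 to 59556555), and none was listed in galactose. The low glucose peak covered 65.8% of the gene and shared its end with the normal glucose peak. The lysine gene is shown because its peak changed form between the lists.
TRK-TTT5-1 (lysine, chr11:59556429-59556501, plus): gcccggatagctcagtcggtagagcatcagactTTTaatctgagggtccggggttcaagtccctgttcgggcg
Of the 6 tRNA genes of this locus, TRL-TAA3-1 for leucine and TRF-GAA1-3 for phenylalanine had no peak in any list.

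LINC00324 on chromosome 17 (8220624 to 8224043, minus strand) had 2 regions in every list and 1 in normal glucose alone. Over TRD-GTC2-11, an aspartate tRNA gene on the host's strand that crosses the boundary of an exon and an intron, the peak was identical in all 3 lists (8222186 to 8222361). Over TRP-CGG1-3, a proline tRNA gene within an exon, the peak ran from 8222779 to 8222949 in galactose, against 8222779 to 8222948 in low glucose and in normal glucose, a shift of a single base. The normal glucose list alone had a peak of 177 nt over the glycine tRNA gene TRG-TCC3-1, in an intron and on the other strand (8221496 to 8221672). The fourth tRNA gene of LINC00324, TRW-CCA1-1 for tryptophan, had no peak in any list.

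LINC01783, ENSG00000260464 and ENSG00000236140, all on chromosome 1, had 1 peak each, and in each case it was the same to the base in galactose, low glucose and normal glucose. In LINC01783 (16533886 to 16535649, minus strand) it lay in an exon over the glutamate tRNA gene TRE-TTC4-1, from 16535225 to 16535403. In ENSG00000260464 (93847174 to 93848939, plus strand) it lay in an exon over TRR-TCT1-1, from 93847520 to 93847710, and at 191 nt it was the widest peak of the loci. In ENSG00000236140 (145286610 to 145287755, minus strand) the peak ran from 145287713 to 145287892, and only 43 nt of it lay inside the lncRNA. The tRNA gene itself, TRN-GTT2-7 for asparagine, lay outside the locus on the opposite strand, with 10 nt between them, upstream of the start of the lncRNA. Without its outer 50 nt on either side the peak would not have touched the lncRNA, since 7 nt lay between them.

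ENSG00000283360 (chromosome 1, 161403409 to 161470523, minus strand) is a locus of 67115 nt with 24 tRNA genes, of which 4 had a peak: all 4 had one in the galactose list, whereas low glucose listed 2 and normal glucose 1. The site found in every medium lay over TRE-TTC4-2, a glutamate tRNA gene that is also in an exon of ENSG00000283696 on the other strand (161399409 to 161422424, plus strand), and its peak of 101 nt was identical in the 3 lists (161422116 to 161422216). The same gene sequence thus carried a peak of 179 nt over TRE-TTC4-1 and of 101 nt over TRE-TTC4-2, and neither changed with the medium. The site over the glycine tRNA gene TRG-TCC4-1, in introns of ENSG00000283360 and of ENSG00000283317 (161433444 to 161440996, minus strand), was in galactose and low glucose at the same position (161440118 to 161440218). Galactose alone had peaks of 101 nt over TRG-GCC1-1 (161443262 to 161443362) and TRG-GCC1-4 (161465491 to 161465591), glycine tRNA genes with identical sequence that stand 22093 nt apart. The first covered the 5' part and the second the 3' part of the gene. The 20 tRNA genes of the locus with no peak listed, for aspartate, leucine, glutamate, glycine and asparagine, each had at least 1 identical copy elsewhere in the genome. So did TRE-TTC4-2, TRG-GCC1-1 and TRG-GCC1-4, which had a peak. The glycine genes are shown because none of the 3 sites over them was in the normal glucose list.
TRG-TCC4-1 (glycine, chr1:161440171-161440242, minus): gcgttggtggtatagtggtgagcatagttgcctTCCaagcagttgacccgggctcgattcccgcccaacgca
TRG-GCC1-1 (glycine, chr1:161443304-161443374, plus): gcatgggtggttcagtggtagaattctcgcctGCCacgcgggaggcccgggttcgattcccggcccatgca

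**Figure D2:**
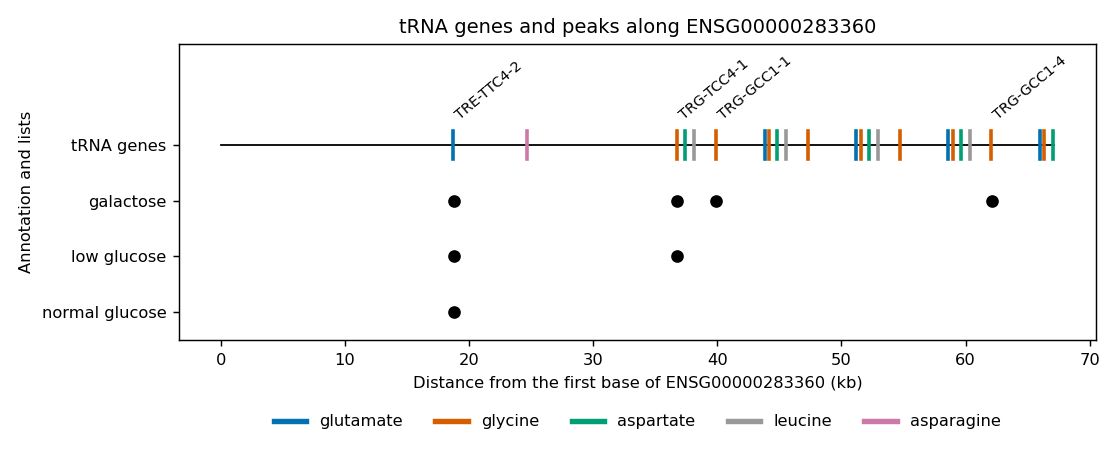
The 24 tRNA genes of ENSG00000283360 (ticks coloured by amino acid and drawn wider than to scale) and the middles of its peaks in each list (dots), against the distance from the first base of the locus in kb. Galactose has 4 dots, low glucose 2 and normal glucose 1. The 20 ticks without a dot all have identical copies elsewhere, as do TRE-TTC4-2, TRG-GCC1-1 and TRG-GCC1-4, which have dots.

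ENSG00000285853 (chromosome 1, 16515034 to 16521788, plus strand) held an intronic peak of 102 nt over the asparagine tRNA gene TRN-GTT5-1, on the minus strand, in galactose and in low glucose (16520532 to 16520633 in both). ENSG00000290578 (chromosome 1, 146321214 to 146401647, minus strand) held an intronic peak over TRN-GTT24-1, also for asparagine, in low glucose alone (146370130 to 146370230). These 2 genes are shown beside the asparagine gene TRN-GTT2-7 above, to which they are close in sequence.
TRN-GTT5-1 (asparagine, chr1:16520585-16520658, minus): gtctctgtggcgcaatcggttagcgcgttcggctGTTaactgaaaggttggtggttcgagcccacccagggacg
TRN-GTT24-1 (asparagine, chr1:146370101-146370174, plus): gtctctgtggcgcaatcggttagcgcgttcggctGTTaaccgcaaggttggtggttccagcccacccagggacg
The change from TRN-GTT5-1 to TRN-GTT2-7 was 1 base, T41C, and from TRN-GTT2-7 to TRN-GTT24-1 it was A43C and G58C. Of these 3 near-identical genes, TRN-GTT2-7 was spanned by its peak in every list, and the others had only narrow peaks at their 3' ends that were not listed in normal glucose. TRN-GTT2-6, a gene in another host with the same sequence as TRN-GTT2-7, also had only a narrow peak at its 3' end, in low glucose alone. The form of the peak thus differed between genes of identical sequence as well.

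The single region of the loci without a tRNA gene was also in ENSG00000290578. It bore a second name, RNVU1-29, a gene of a variant of U1 small nuclear RNA, which takes part in recognising the start of introns. The peaks were 146376931 to 146377031 in galactose and 146376929 to 146377029 in low glucose, with none in normal glucose. Their middles lay 11 and 9 nt past the last base of RNVU1-29 (146376807 to 146376970, plus strand).

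Peaks of the 16 tRNA sites fell in 2 classes of width, with none between 103 and 170 nt. Per the study's methods, crosslink sites near one another were merged and solitary sites were extended by up to 50 nt. A peak of 101 nt was therefore read as a single site and a peak of 102 or 103 nt as adjacent bases, and wider peaks as merged sites. Single-site peaks, taken as those of at most 110 nt, were 101 to 103 nt wide here (13 peaks over the 3 lists), and merged peaks were 170 to 191 nt wide (24 peaks, median 179 nt). In galactose 7 of the 13 tRNA peaks had the merged form (53.8%). Low glucose gave the same numbers, 7 of 13 (53.8%), and in normal glucose it was 10 of 11 (90.9%). In other hosts the merged share was 48.1% in galactose (25 of 52), 41.8% in low glucose (23 of 55), and 58.7% for normal glucose (27 of 46). By site, 10 of the 16 had a merged peak in some list and 6 had single-site peaks only. The sites that were not in normal glucose, TRN-GTT5-1, TRG-TCC4-1, TRG-GCC1-1, TRG-GCC1-4 and TRN-GTT24-1, all had the single-site form. In other hosts, the tRNA sites that were not in normal glucose also had single-site peaks only, with 4 exceptions. TRG-CCC1-2, TRE-TTC3-1, TRN-GTT1-1 and TRA-AGC11-1 each had a merged peak in 1 list. The single-site form of such sites is thus not particular to the loci.

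The limits of the peaks followed the ends of the tRNA genes within a few bases. Merged peaks were read as extended by 50 nt as well, which the methods state for solitary sites only. When 50 nt were taken off each end of a merged peak, the part that was left began 2 or 3 nt before the 5' end of the tRNA gene in 21 of 24 peaks, with a median of 2 nt before it. It ended 1 to 4 nt past the 3' end in all 24 (median 3 nt). The exceptions at the 5' end were the 3 peaks of TRP-CGG1-3, whose inner part began 5 nt inside the gene in galactose, and 6 nt inside it in low glucose and in normal glucose. The 2 longest genes had the widest peaks, 191 nt at TRR-TCT1-1 in every list and 189 nt at TRR-TCT3-2 in normal glucose. These peaks of different lists at 1 site are not independent of each other.

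The single-site peaks lay at the ends of the genes as well. Of 13, 9 had their last inner base 3 to 6 nt past the 3' end and 4 stood at the 5' end, namely the 3 peaks of TRE-TTC4-2, 2 nt before the gene, and the peak of TRG-GCC1-1, 8 nt inside it. None lay elsewhere in a gene. The galactose and low glucose peaks of TRR-TCT3-2 and the low glucose peak of TRK-TTT5-1, at the sites spanned in normal glucose, were 3' end peaks. Over tRNA genes in other hosts, the same limits were found for most peaks: 67 of 75 merged peaks began 1 to 4 nt before the gene and 69 ended 1 to 4 nt past it, while 53 of 78 single-site peaks were within 10 nt of the 3' end, 3 within 10 nt of the 5' end and 22 elsewhere. How the loci and the other hosts compare was not tested.

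**Figure D3:**
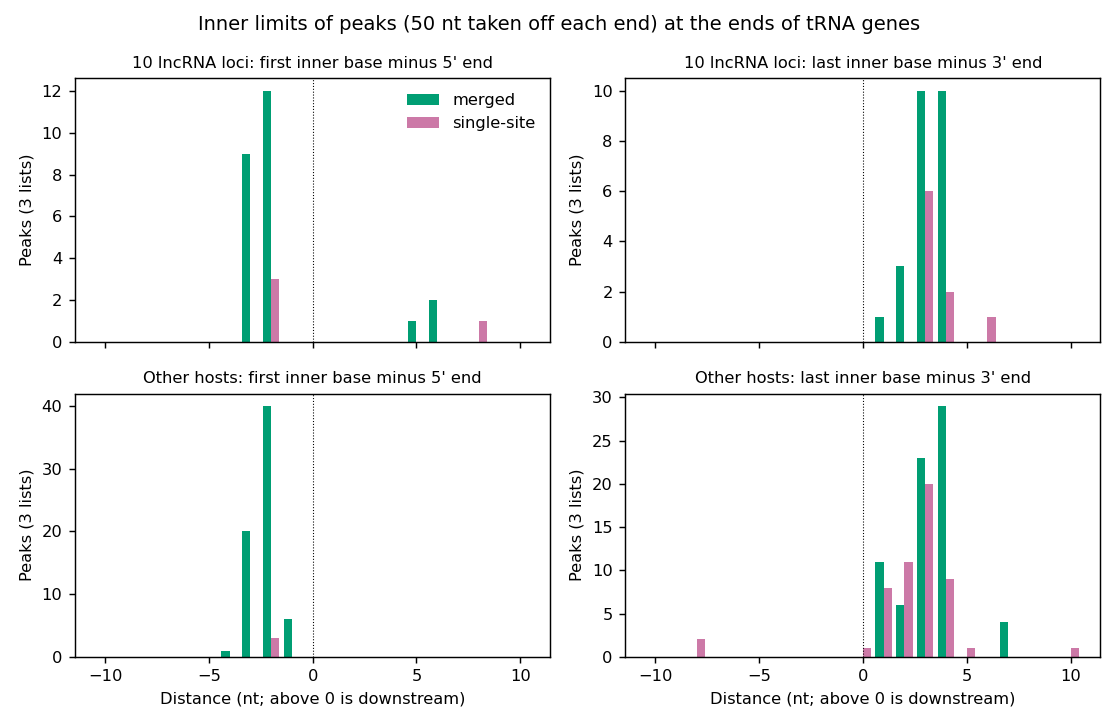
Distance in nt of the first inner base of each peak from the 5' end of its tRNA gene (left) and of the last inner base from the 3' end (right), within 10 nt, for the 10 loci (upper) and other hosts (lower), summed over the 3 lists. Bars count merged and single-site peaks; merged peaks of the 10 loci begin mostly 2 or 3 nt before the gene and end 1 to 4 nt past it.

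The bases around the single sites are shown for the 5 peak positions that were exactly 101 nt wide, with the middle of the peak in capitals, read on the strand of the tRNA gene. They are shown because RNase T1 cuts after G, although the middle of such a peak is read as the called crosslink site and not as a cut.
TRE-TTC4-2 (5' end, in galactose, low glucose and normal glucose, chr1:161422156-161422176, minus): tgtcaccagcCctccctggtg
TRG-TCC4-1 (3' end, in galactose and low glucose, chr1:161440158-161440178, minus): ccaacgcatcGggcggacctt
TRG-GCC1-1 (5' end, in galactose, chr1:161443302-161443322, plus): gtgcatgggtGgttcagtggt
TRG-GCC1-4 (3' end, in galactose, chr1:161465531-161465551, plus): cccatgcagcAcgccctccca
TRN-GTT24-1 (3' end, in low glucose, chr1:146370170-146370190, plus): ggacgcttgtTcgagctttta
None of the 5 had a G just before the middle. The share over other single-site peaks was not counted, so 0 of 5 is a description only. The base there was a C in 3 and a T in 2. With the starts counted from 0 the number with a G was 2, and read on the strand of the host named first it was also 2. In none of the 16 genes did the genome read CCA in the 3 bases after the gene. The share over all nuclear tRNA genes was not counted for CCA.

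How well a place can be told from its copies differed between the sites. Of the 16 tRNA genes, 8 were the only gene with their sequence among the nuclear tRNA genes, and the others had between 1 and 10 identical copies. The aspartate gene TRD-GTC2-11 was 1 of 11 identical genes, of which 4 had a peak in any list, while none of the 5 copies in ENSG00000283360 did. TRN-GTT2-7 was 1 of 8, of which 2 had a peak. TRP-CGG1-3 was 1 of 3 and TRV-TAC1-1 1 of 2, and in each it alone had a peak. In TRE-TTC4 both copies had one. Counted over 30-mers of the whole region, 5 of the 17 regions had more than 50% of their sequence elsewhere in the genome as well. At TRG-GCC1-1 and TRG-GCC1-4, the sites of galactose alone, every 30-mer recurred, flanks included. At TRE-TTC4-1 it was 70%, at TRN-GTT2-7 58.9% and at TRN-GTT5-1 57.5%. At TRR-TCT1-1 only 2.47% of the 30-mers recurred and at TRG-TCC4-1 none. The regions over TRV-TAC1-1, TRV-TAC2-1 and TRR-TCT3-2 stood at 30%, 18.8% and 14.7%, and TRK-TTT5-1 at 13.3%. In 7 of the 9 regions found in all lists less than 50% of the 30-mers recurred, while all 30-mers of the genes alone did so at 4 of these 7, TRE-TTC4-2, TRV-TAC1-1, TRD-GTC2-11 and TRP-CGG1-3. By the gene alone, 11 of the 16 tRNA genes had more than 50% of their 30-mers recurring. For the 8 genes that were the only one with their sequence, it was 93.3% at TRN-GTT5-1, 72.1% at TRG-TCC3-1 and 63.6% at TRV-TAC2-1. It was 45.5% at TRK-TTT5-1, 40.4% at TRR-TCT3-2, 28.9% at TRN-GTT24-1, 7.14% at TRR-TCT1-1 and 0% at TRG-TCC4-1.

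**Figure D4:**
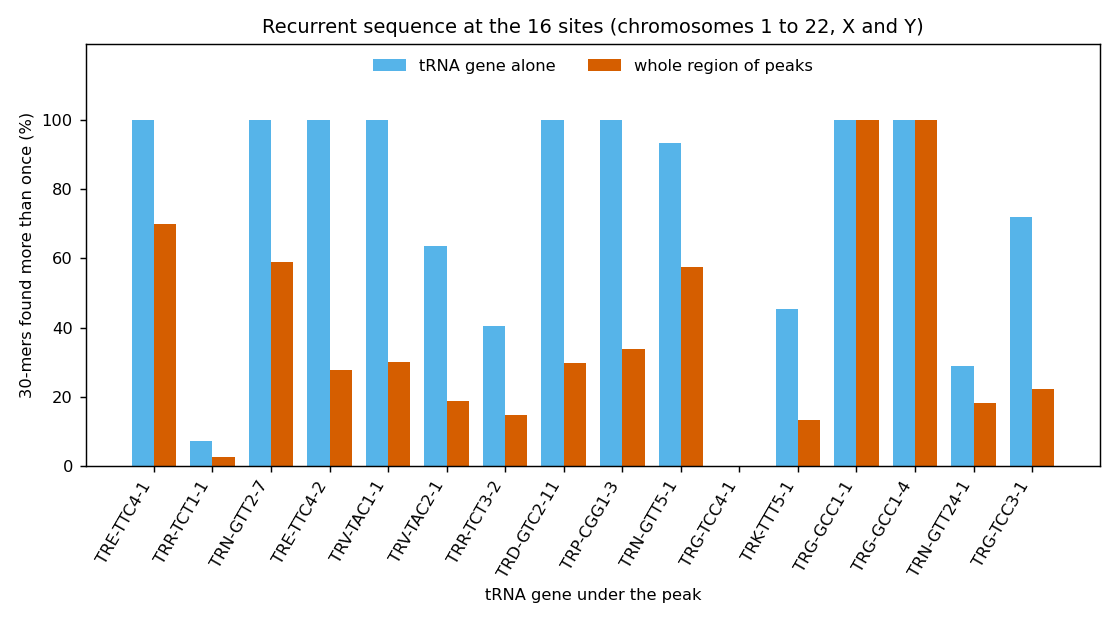
Share of 30-mers (%) that occur more than once in chromosomes 1 to 22, X and Y, for each tRNA gene alone and for the whole region of peaks around it, in the order of the site map. Both bars reach 100% at TRG-GCC1-1 and TRG-GCC1-4 and stand at 0% at TRG-TCC4-1.

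The loci stood on either strand relative to their tRNA genes. At 7 of the 16 sites the tRNA gene had the strand of the lncRNA, at 8 the opposite one, and at TRE-TTC4-2 the 2 hosts lie on opposite strands. Counted by host and site, 12 tRNA genes were in an intron, 4 in an exon, 1 across the boundary and 1 outside the border of its host. Including those without a peak, 40 nuclear tRNA genes lay in the loci or within 2000 nt of one of their peaks, and 16 of them had a peak. Of the 24 others, 22 had an identical copy elsewhere, and the exceptions were TRL-TAA3-1 and TRW-CCA1-1. Of the 16 with a peak, 8 were the only gene with their sequence. The share with an identical copy among all nuclear tRNA genes was not counted.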

How the data were processed

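Per the labels and the study's methods, the authors trimmed and mapped the CLIP reads (with cutadapt and STAR on hg38 according to the submitters' processing notes, versions not given in the sources used here), called crosslink sites with PureCLIP, merged sites lying close together, extended solitary sites and joined both replicates of a condition. The 3 deposited lists give chromosome, start, end, gene identifier and symbol; peak threshold and joining rule are not given in the sources used here. The depth is therefore unknown, and none of the values is a count of reads.

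Members were matched by identifier or symbol. They and the gene lists were chosen with earlier results of these data known. All 10 loci, every tRNA gene under their peaks and the tRNA genes in or near the loci were named. Inner parts of peaks were taken 50 nt in from each end. Positions were read as 1-based, and peaks overlapping by at least 1 nt were merged into regions. Loci came from GENCODE release 44 and the positions of 443 nuclear tRNA genes from RefSeq annotation (GRCh38.p14), taken without strand. The strand was read from the anticodon and B box, which left 13 genes without one. Sequences came from hg38. The 30-mers were counted on both strands. Python 3.11.15, pysam 0.24.0 and Biopython 1.88 were used. Offsets were read back from planted peaks, and the strand reader was rerun on genes whose strand it had already read, as they stood and turned round. Both checks reuse the rules they check, so they cannot show whether a strand was read rightly. No test was run, since each condition was a single list. Alternatives were other overlap, width, strand and start rules and leaving out recurrent regions.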

Additional observations from a re-analysis of the deposited data

How the results depend on the processing

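Of 19 alternative counts, 16 lay within 1.5 times the value given. The number of regions in all 3 lists was 9 with an overlap of 50% of the shorter peak or with peaks within 50 nt joined, and 7 with identical positions or without recurrent regions. The number of regions over a tRNA gene, 16, was 10 where the whole gene had to lie inside the region, because single-site peaks cover only part of it, and 11 where the middle of a peak had to lie in the gene, where peaks were shrunk by 50 nt at each end, or without recurrent regions. Recurrent regions were those with more than 50% of the 30-mers of the whole region, flanks included, found elsewhere as well. By the tRNA gene alone, 11 of the 16 genes had more than 50% of their 30-mers recurring, and leaving these out was not tried. Single-site peaks with a G before the middle numbered 0 of 5, against 2 with starts counted from 0 and 2 on the strand of the host. No paired analysis was possible because the samples of a condition were joined into 1 list, and no replicate could be left out for the same reason. A peak that is not listed may lie below the authors' threshold, and its depth is unknown.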
